A study of Mus musculus with 12 samples.

Results

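The genes described here are 39 genes of ribosome biogenesis and the nucleolus, taken from a fixed list of symbols: every listed symbol was matched to its row in both deposited count tables, so that 39 of 55450 rows belong to the set. All 39 passed the filter on low counts in each comparison. The samples were mouse CD4 T cells, positively selected from cultures of naive T cells, and their polyadenylated RNA was sequenced. The labels name spleen plus lymph nodes, and elsewhere splenocytes, as the source. Cells were wild type (WT) or lacked Pkm2 (KO), the M2 form of pyruvate kinase, and the labels give neither the allele nor what drives the deletion. All 4 groups were cultured for 24 hours with human interleukin 7 (25 ng/mL), a survival factor for naive T cells, according to the design text, while the samples' treatment labels say overnight. The WT resting and KO resting groups had interleukin 7 alone, while the WT stimulated and KO stimulated groups were plated on wells coated with anti-CD3 at 1 ug/mL, which engages the T cell receptor complex, plus anti-CD28 at 2 ug/mL, which engages a costimulatory receptor. There were 3 libraries per group. The labels as used here give no age for the mice.

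Ribosomes are assembled in the nucleolus, where RNA polymerase I transcribes a long precursor of the ribosomal RNAs. Small nucleolar RNA-protein particles (snoRNPs) guide the methylation (box C/D) and pseudouridylation (box H/ACA) of that precursor, a large early complex called the small subunit processome folds and cleaves it, and separate sets of factors then mature and export the 40S and 60S subunits. Naive T cells are small and make little protein. After they are triggered through the T cell receptor they enlarge, their nucleoli grow and they divide, which takes many new ribosomes.

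Total counts per library ran from 63266477 to 76891786. Pkm, the targeted gene, lay lower in every KO library than in the WT libraries of the same condition, with 455 ± 47.4 CPM (counts scaled to a common library total; mean ± SD, n = 3) in WT resting, 185 ± 11.7 in KO resting, 2485 ± 35.5 in WT stimulated and 1052 ± 14.6 in KO stimulated. All 12 CD4 T cell markers were detected in every group. They summed to 4763 to 5706 CPM in the resting and 2692 to 2794 CPM in the stimulated libraries. Most of the 12 are shared by other T cells, so their detection does not show that the cells were CD4 T cells. The 2 CD8 T cell markers summed to 45.8 to 51.9 CPM in WT resting and 49.8 to 68.5 in KO resting libraries. In stimulated libraries they summed to 15.4 to 21.01 CPM in WT and 28.5 to 32.7 in KO, where 1 of the 2 passed as higher (edgeR). The 6 NK cell markers summed to 131 to 166 CPM at rest and 29.2 to 60.3 after stimulation. Xist, a transcript of female cells, stood at 0.0496 to 0.0867 CPM in the resting and 941 to 1126 CPM in the stimulated libraries, whereas Ddx3y, a Y-linked gene, stood at 143 to 167 CPM at rest and at 0 in every stimulated library. Condition, the sex that these transcripts show and the deposited table therefore go together in every library, and their parts in any difference between stimulated and resting cells cannot be told apart. Summed over each list, markers of other cells were also higher at rest. In the edgeR test of stimulation described below, 8 of the 10 B cell markers passed as lower in each genotype. Another 1 passed as higher, by 2.96-fold in WT and 3.00-fold in KO. The 10 myeloid markers summed to 976 to 3107 CPM in WT resting, 903 to 928 in KO resting, 7.90 to 13.7 in WT stimulated and 15.7 to 21.3 in KO stimulated libraries, the 10 B cell markers to 1268 to 2464, 1803 to 1920, 404 to 606 and 780 to 813 CPM, and the 7 erythroid markers to 59.6 to 1723, 145 to 1693, 18.2 to 69.8 and 14.0 to 24.3 CPM. Since these are bulk samples, fewer cells of a type and less RNA per cell cannot be told apart. No label states whether replicate libraries of a group stem from different mice, so every p-value measures the spread between these libraries only, which may be technical.

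Rises and falls, here and below, are relative to the scaled library total and do not give levels per cell. All 39 genes were higher in stimulated than in resting cells in both genotypes. They rose 2.57- to 11.6-fold in WT and 2.45- to 9.67-fold in KO, with a median log2 fold change of 2.40 in WT and 2.25 in KO, against a median of -0.14 and -0.11 over all genes tested. The test (edgeR's quasi-likelihood F-test, Benjamini-Hochberg adjusted over 17460 genes) called 39 of 39 higher in WT, where 39.3% of all genes tested were called higher, and 39 of 39 higher in KO, where 39.6% were. Adjusted p ran from 2.78e-14 to 1.43e-09 in WT and from 4.60e-14 to 3.94e-09 in KO. For each of the 39 genes every stimulated library lay above every resting library of its genotype, which held for 39.7% of genes tested in WT and 41.3% in KO. The 39 genes were chosen with earlier results of these data known, so their distance from these shares may in part reflect that choice. With library totals alone as the scale the members' medians were 2.07 in WT and 1.92 in KO. Those of all genes were then -0.47 and -0.44. The distance between members and all genes was 2.54 in WT and 2.36 in KO under either scale. A change of scale moves all genes by nearly the same amount, so this distance could hardly have changed.

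As a share of all counts, the 39 genes held 0.377%, 0.395% and 0.424% in the WT resting libraries and 0.429%, 0.422% and 0.425% in KO resting. In the stimulated libraries they held 2.06%, 2.13% and 2.09% in WT and 2.05%, 2.05% and 1.94% in KO. Ncl and Npm1 alone made up 33.0% to 35.4% of the members' counts at rest and 45.4% to 47.7% after stimulation, with no overlap between resting and stimulated libraries. The resting shares overlapped between genotypes only at the top of the WT range, and in stimulated cells every KO library held a smaller share than every WT library.

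**Figure D1:**
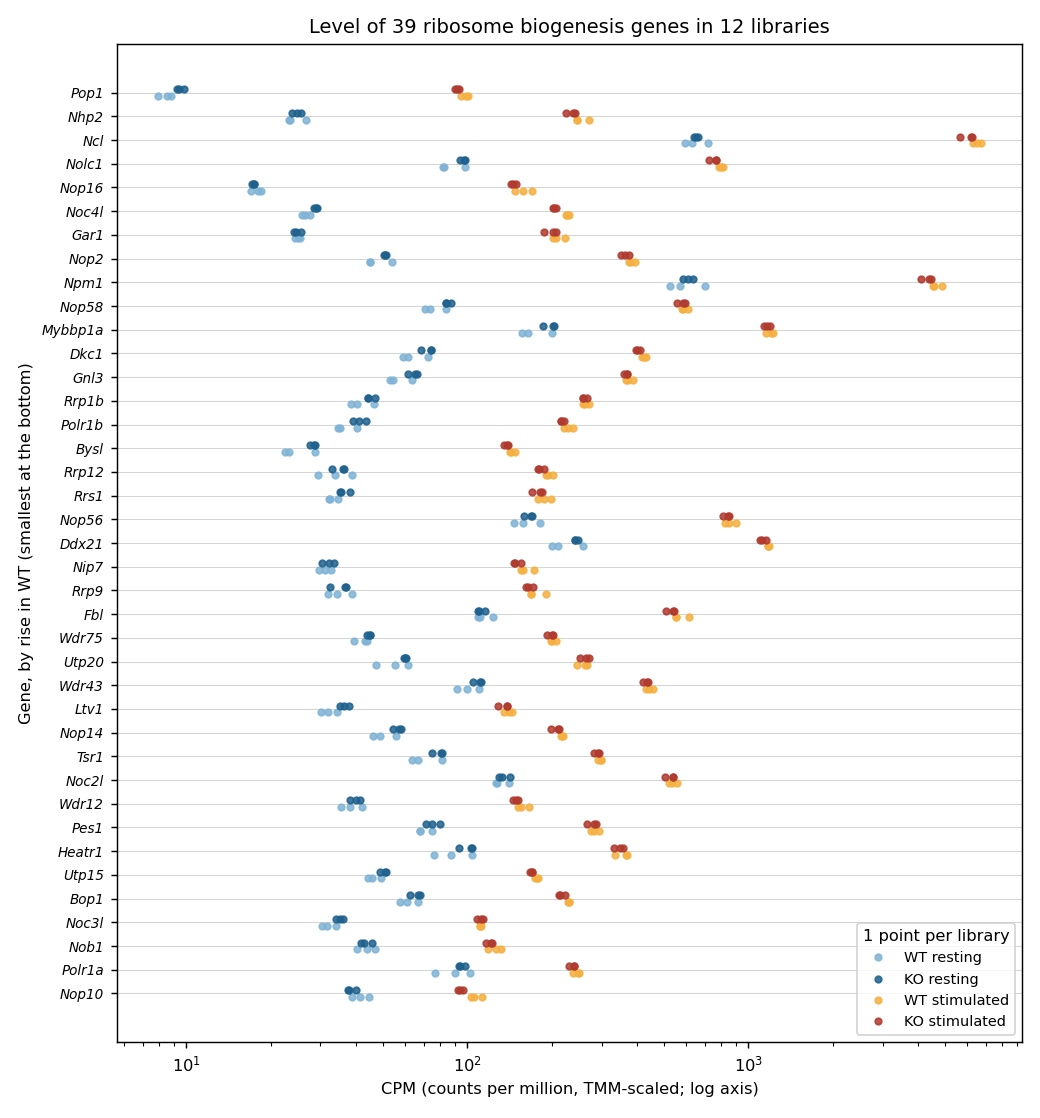
Level of each of the 39 genes in the 12 libraries, in CPM scaled by TMM (the trimmed mean of M values, edgeR's library scaling) on a log axis, with 1 point per library and the genes in order of their rise in WT. The stimulated points of each gene sit to the right of its resting points in both genotypes, from Nop10 at the bottom (2.57-fold in WT) to Pop1 at the top (11.6-fold in WT).

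Promoter windows were searched for a motif because the members moved together. The E-box CACGTG, which reads the same on both strands, is the motif bound by MYC with its partner MAX and by other factors of the same class such as USF. RefSeq promoter windows (GRCm38.p6, 250 bases before to 50 after a gene's start) were found for 33 of the 39 genes, and not for Npm1, Fbl, Bop1, Rrp12, Rrs1 and Pop1. The E-box lay in the windows of 7 of the 33 (21.2%), against 2187 of 27025 gene symbols with a window (8.09%). The GC content, averaged over the windows of each symbol, had a median of 59.3% for the 33 members and 52.8% over all 27025 symbols. The 30 bases around each match are shown 5′ to 3′ on the gene's strand with the motif in capitals, to show where the motif lies and what letters flank it.
Nop2 (chr6:125131811-125131840, + strand): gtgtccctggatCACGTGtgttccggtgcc
Ltv1 (chr10:13193092-13193121, - strand): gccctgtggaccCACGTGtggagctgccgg
Utp20 (chr10:88826765-88826794, - strand): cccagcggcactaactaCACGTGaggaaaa
Pes1 (chr11:3963965-3963994, + strand): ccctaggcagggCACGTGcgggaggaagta
Mybbp1a (chr11:72441347-72441376, + strand): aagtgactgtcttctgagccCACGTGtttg
Tsr1 (chr11:74898092-74898121, + strand): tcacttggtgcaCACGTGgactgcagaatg
Wdr43 (chr17:71616220-71616249, + strand): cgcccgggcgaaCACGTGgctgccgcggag
Counted from the start as position 1, the motif began at -60 in Nop2, 29 in Ltv1, 38 in Utp20, 3 in Pes1, 41 in Mybbp1a, 25 in Tsr1 and 18 in Wdr43. The 7 genes with a match rose by a median log2 of 2.15 in WT and 1.98 in KO, and the 26 without one by 2.41 in WT and 2.26 in KO. The match is a description of these letters, and no window of another length was searched.

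Among nucleolar scaffolds and chaperones, 6 of 6 genes rose in each genotype, with a median log2 fold change of 2.87 in WT and 2.696 in KO. Nucleolin (Ncl, chr1:86344719-86359400 on mm10), an RNA-binding scaffold of the nucleolus, stood at 597, 629 and 719 CPM in the WT resting libraries, 651, 659 and 640.1 in KO resting, 6270.5, 6734 and 6518 in WT stimulated and 6180.4, 6257 and 5651 in KO stimulated. Its stimulated libraries were all above its resting libraries, and the rise was 10.04-fold in WT and 9.28-fold in KO (log2 3.33 ± 0.08 SE and 3.21 ± 0.08 SE). Nucleophosmin (Npm1, chr11:33152287-33163206), a histone and ribosomal protein chaperone of the outer nucleolus, stood at 524, 571 and 698 CPM in the WT resting libraries, 584, 633 and 609.97 in KO resting, 4522, 4896 and 4579.7 in WT stimulated and 4396, 4464 and 4126 in KO stimulated. It rose 7.81-fold in WT and 7.11-fold in KO, with the largest standard errors of the 39 genes (log2 2.96 ± 0.10 in WT and 2.83 ± 0.10 in KO). Npm1 has many processed copies in the genome, so its counts carry some uncertainty. Nolc1, which carries snoRNPs between nucleolus and Cajal bodies, rose from 87.2 ± 9.18 to 797 ± 13.3 CPM in WT (9.13-fold) and from 96.5 ± 2.09 to 754 ± 23.9 in KO (7.81-fold; mean ± SD, n = 3). Mybbp1a, a nucleolar protein that binds transcription factors and takes part in early precursor processing, rose 6.89-fold in WT and 5.91-fold in KO. The GTPase nucleostemin (Gnl3) rose 6.61-fold in WT and 5.71-fold in KO. The RNA helicase Ddx21, which acts in RNA polymerase I transcription and precursor processing, rose 5.28-fold in WT and 4.599-fold in KO, the smallest rise of this role.

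The subunits of RNA polymerase I that form its catalytic core rose to different extents. The largest subunit, Polr1a, stood at 76.8, 90.6 and 102 CPM in the WT resting libraries, 94.1, 92.97 and 98.01 in KO resting, 248, 237 and 248.7 in WT stimulated and 239, 231 and 239.7 in KO stimulated, and rose 2.72-fold in WT and 2.49-fold in KO. The second largest, Polr1b, stood at 34.6, 35.3 and 40.4 CPM in the WT resting libraries, 43.5, 39.3 and 41.3 in KO resting, 228, 219.9 and 237 in WT stimulated and 219.9, 215 and 216 in KO stimulated, and rose 6.21-fold in WT and 5.24-fold in KO. At rest the mean CPM of Polr1a exceeded that of Polr1b, and after stimulation their means lay close together, although CPM does not correct for the longer transcript of Polr1a. Per kilobase of the principal transcript, the 2 subunits stood at 9.74 ± 1.35 and 9.198 ± 0.788 CPM per kb in WT resting and at 26.5 ± 0.710 and 57.1 ± 2.19 in WT stimulated cells.

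Of the box C/D snoRNP proteins 4 of 4 rose, with a median log2 fold change of 2.37 in WT and 2.29 in KO. Fibrillarin (Fbl), the methyltransferase of the particle, stood at 109, 111 and 124 CPM in the WT resting libraries, 109.5, 116 and 109 in KO resting, 551, 613 and 554 in WT stimulated and 539, 542 and 510.4 in KO stimulated. It rose 5.001-fold in WT and 4.76-fold in KO (log2 2.32 ± 0.06 and 2.25 ± 0.06 SE). Nop56 and Nop58, the paired core proteins that hold the guide RNA, rose 5.31-fold in WT and 5.05-fold in KO for Nop56 and 7.79-fold in WT and 6.79-fold in KO for Nop58. Nop58 stood at 73.3, 70.6 and 83.9 CPM in the WT resting libraries, 87.4, 84.1 and 84.2 in KO resting, 581, 610.03 and 584 in WT stimulated and 586, 593 and 558 in KO stimulated, with no overlap between conditions. Rrp9, which binds the U3 snoRNA, rose 5.02-fold in WT and 4.68-fold in KO. Both Nop56 and Nop58 hold snoRNA genes within their borders on the same strand (5 in Nop56 and 4 in Nop58), as do Ncl, Dkc1, Wdr43, Tsr1 and Gnl3, so that 7 of the 39 genes host 21 snoRNA genes. These 7 rose by a median log2 of 2.72 in WT and 2.48 in KO, and the other 32 by 2.35 and 2.22.

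The box H/ACA core held both the gene with the second largest rise in WT and the gene with the smallest. Nhp2, an RNA-binding core protein, stood at 23.1, 23.4 and 26.6 CPM in the WT resting libraries, 24.8, 25.6 and 23.8 in KO resting, 244, 271 and 245 in WT stimulated and 242, 238 and 225 in KO stimulated. It rose 10.4-fold in WT and 9.49-fold in KO (log2 3.38 ± 0.07 and 3.25 ± 0.07 SE). Gar1, another core protein, rose 8.43-fold in WT and 8.02-fold in KO. Dyskerin (Dkc1), the pseudouridine synthase and the only X-linked gene of the 39, rose 6.61-fold in WT and 5.57-fold in KO. Nop10, the small protein that bridges dyskerin and Nhp2, stood at 41.6, 38.8 and 44.5 CPM in the WT resting libraries, 37.7, 39.97 and 37.9 in KO resting, 106, 112 and 103 in WT stimulated and 93.8, 96.8 and 92.5 in KO stimulated (chr2:112261926-112263269). Its groups did not overlap between conditions either, but its rise was 2.57-fold in WT and 2.45-fold in KO, below that of every other member in both genotypes. Nhp2 overlaps the coding gene Rmnd5b on the other strand and Dkc1 overlaps Mpp1; no source used here says if reads were counted by strand, and 14 of the 39 genes have such a neighbour.

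In the small subunit processome 7 of 7 rose, with a median log2 fold change of 2.15 in WT and 1.98 in KO. Noc4l, which forms a complex with Nop14 during 40S assembly, stood at 26.3, 25.8 and 27.6 CPM in the WT resting libraries, 29.1, 28.95 and 28.4 in KO resting, 223, 229.7 and 225 in WT stimulated and 207, 201 and 202 in KO stimulated (chr5:110648418-110653417). It rose 8.51-fold in WT and 7.06-fold in KO (log2 3.09 ± 0.04 and 2.82 ± 0.04 SE), the largest rise of this role and the smallest adjusted p of the 39 genes in each genotype. Its partner Nop14 rose 4.32-fold in WT and 3.67-fold in KO. The UTP-A proteins, which bind the precursor early, also rose: Heatr1 4.003-fold in WT and 3.45-fold in KO, Utp15 3.81-fold in WT and 3.34-fold in KO, Wdr43 4.42-fold in WT and 3.95-fold in KO, with Wdr75 at 4.77-fold in WT and 4.43-fold in KO. Utp20, a large scaffold protein, rose 4.73-fold in WT and 4.37-fold in KO.

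Factors of 40S maturation and export rose in 5 of 5 cases, with a median log2 fold change of 2.12 in WT and 1.89 in KO. Bysl, an early 40S factor, rose 5.804-fold in WT and 4.89-fold in KO. Rrp12, an export factor with HEAT repeats, rose 5.74-fold in WT and 5.17-fold in KO. Ltv1 and Tsr1, which sit on cytoplasmic pre-40S particles, rose 4.35-fold in WT and 3.71-fold in KO for Ltv1 and 4.201-fold in WT and 3.66-fold in KO for Tsr1. Nob1, the endonuclease that makes the final cut of the 18S RNA, stood at 40.3, 43.9 and 46.7 CPM in the WT resting libraries, 41.9, 45.9 and 42.8 in KO resting, 119, 131 and 126 in WT stimulated and 121, 122 and 117 in KO stimulated, and rose 2.87-fold in WT and 2.76-fold in KO. This was the smallest rise among the 40S factors and the third smallest of all 39 genes in each genotype.

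Among the 60S assembly factors 10 of 10 rose, with a median log2 fold change of 2.21 in WT and 2.10 in KO. Nop16, a factor of early pre-60S particles, stood at 18.4, 17.04 and 17.96 CPM in the WT resting libraries, 17.4, 17.1 and 17.5 in KO resting, 148, 169 and 157 in WT stimulated and 145, 149 and 143 in KO stimulated, and rose 8.89-fold in WT and 8.399-fold in KO. The RNA methyltransferase Nop2 rose 8.01-fold in WT and 7.17-fold in KO. At the lower end, the pre-60S factor Noc3l rose 3.47-fold in WT and 3.17-fold in KO. The PeBoW complex, which is needed for processing of the 5.8S and 28S RNA precursors, rose 4.04-fold in WT and 3.69-fold in KO for Pes1, 4.06-fold in WT and 3.71-fold in KO for Wdr12 and 3.71-fold in WT and 3.29-fold in KO for Bop1. The other 4 factors, Noc2l, Nip7, Rrs1 and Rrp1b, rose 4.09- to 6.296-fold in WT and 3.93- to 5.78-fold in KO. Noc2l is the partner of Noc3l in pre-60S transport, Nip7 and Rrs1 are early 60S factors, and Rrp1b is a chromatin-linked nucleolar protein.

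Pop1, the largest protein of RNase MRP and RNase P, which cut the ribosomal and transfer RNA precursors, had the largest rise of the 39 genes and the lowest level at rest. It stood at 8.84, 7.92 and 8.53 CPM in the WT resting libraries, 9.82, 9.26 and 9.41 in KO resting, 95.02, 98.9 and 101 in WT stimulated and 93.2, 91.7 and 90.7 in KO stimulated (chr15:34495304-34530648). These values rest on 572 to 792 counts per resting library and 5636 to 6618 per stimulated library. The rise was 11.6-fold in WT and 9.67-fold in KO (log2 3.54 ± 0.05 and 3.27 ± 0.05 SE; edgeR adjusted p 4.09e-14 and 5.81e-14).

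Levels can be compared between genes only per length. On the scale of CPM per kb of the principal transcript, Npm1 was highest in every group, at 366 ± 54.9 in WT resting and 2857 ± 123 in WT stimulated cells (mean ± SD, n = 3). Fbl, Nop56 and Ncl followed at rest in WT, at 95.7, 86.1 and 79.03 CPM per kb, with SDs of 6.62, 9.33 and 7.77, and the libraries of neighbours in that order overlapped. After stimulation Ncl stood above both, at 793 ± 28.3 against 479 ± 29.4 for Fbl and 457 ± 20.04 for Nop56. The lowest level at rest was that of Pop1 (2.48 ± 0.138 in WT), and the lowest after stimulation that of Wdr12 (15.7 ± 0.719 in WT), whose principal transcript is 10012 bases long. The order depends on the transcript used as the length: Nop58, at 345 CPM per kb of its principal transcript of 1713 bases, stood at 54.99 CPM per kb of its union of exons of 10758 bases in WT stimulated cells.

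Subunits of the same complex did not rise by the same factor. Pairs of members from the same complex were compared as the log2 ratio of their counts within a library, which needs no library scaling, and the stimulated and resting ratios were compared by an exact permutation of condition within genotype (two-sided, 400 permutations, smallest possible p 0.005). These pairs were formed after the values had been seen. Of 19 pairs 17 passed after Benjamini-Hochberg adjustment over the 19. The pairs share genes, and pairs of genes from different complexes were not compared. In WT 6861 of 17460 genes were called higher and 7821 lower on stimulation, so the count of 17 cannot be read as particular to these complexes. The Nhp2 to Nop10 ratio changed most: its log2 value went from -0.77 ± 0.07 to 1.24 ± 0.03 in WT and from -0.64 ± 0.03 to 1.31 ± 0.04 in KO (mean ± SD, n = 3), a mean change of 1.98 or 3.95-fold (exact permutation p = 0.005, adjusted p = 0.00679). Gar1 gained 1.71 and Dkc1 1.28 over Nop10 on the log2 scale, and Nhp2 gained 0.71 over Dkc1, each at the same exact p. In the box C/D core, Nop58 gained 0.58 over Fbl and 0.49 over Nop56, while Nop56 gained 0.09 over Fbl, again each at that p. The ratio of Polr1b to Polr1a rose by 1.13, from -1.28 ± 0.12 to -0.10 ± 0.03 in WT and from -1.20 ± 0.08 to -0.12 ± 0.03 in KO. In PeBoW, Pes1 gained 0.15 and Wdr12 0.15 over Bop1. The pairs that did not pass were Wdr12 over Pes1, with a change of 0.01 (exact permutation p = 0.9), and Heatr1 over Utp15, with 0.06 (exact permutation p = 0.245, adjusted p = 0.259). Among the other UTP-A pairs the changes ran from 0.13 for Wdr75 over Wdr43 (exact permutation adjusted p = 0.0224) to 0.36 for Wdr75 over Utp15. A ratio shows that its members changed unequally and says nothing of either member alone.

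**Figure D2:**
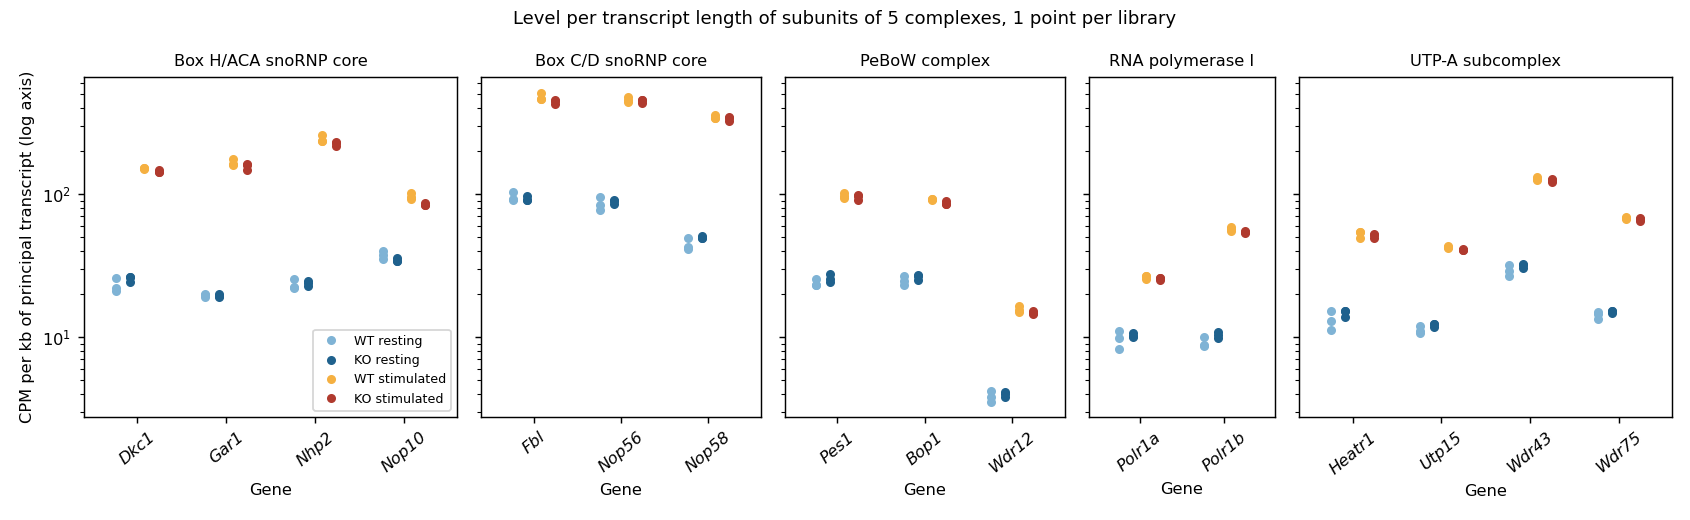
Level of the subunits of 5 complexes in CPM per kb of the principal transcript (log axis), with 1 point per library in each of the 4 groups. In the box H/ACA panel Nop10 is the highest of the 4 genes at rest and the lowest after stimulation, and in the RNA polymerase I panel Polr1a and Polr1b overlap at rest and separate after stimulation.

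The rest of the ribosome assembly pathway was described with lists of other genes. All 31 other small subunit processome genes rose in each genotype, with medians of 1.69 in WT and 1.51 in KO on the log2 scale. The largest WT rises were those of the UTP-A protein Utp4 (2.65 ± 0.06 SE), the UTP-B protein Tbl3 (2.49 ± 0.05) and Nol10 (2.44 ± 0.05). Of 37 other 60S assembly genes 37 rose in WT and 36 in KO, with medians of 1.69 and 1.45, led by Mrto4, a placeholder for a stalk protein (3.00 ± 0.06), Rpf2 (2.92 ± 0.06) and Rrp15 (2.66 ± 0.08). Nsa2 had log2 values of 0.21 ± 0.09 in WT (edgeR adjusted p = 0.0487) and 0.19 ± 0.09 in KO (edgeR adjusted p = 0.0703), and -0.12 ± 0.07 and -0.13 ± 0.07 with library totals as the scale. All 10 other snoRNP genes rose in each genotype (medians 2.38 and 2.16), led in WT by the H/ACA assembly factor Naf1 (3.11 ± 0.06) and the AAA+ ATPases Ruvbl1 (2.71 ± 0.06) and Ruvbl2 (2.64 ± 0.06). The 6 measured genes of the other 40S maturation list, which also holds the 60S factor Lsg1, rose in each genotype (medians 1.40 and 1.31), led by Pno1 (2.93 ± 0.05), Tsr2 (2.12 ± 0.04) and the kinase Riok2 (1.54 ± 0.04).

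The polymerase lists moved less evenly. Of 13 other RNA polymerase I genes and factors 10 rose in each genotype, with medians of 1.25 in WT and 1.06 in KO. The largest WT rises were those of the subunit Cd3eap (2.43 ± 0.08 SE), the initiation factor Rrn3 (1.71 ± 0.06) and the promoter factor subunit Taf1d (1.69 ± 0.06). Relative to the scaled library total, Ttf1, the RNA polymerase I termination factor, fell by 0.17 in WT and by 0.25 in KO in log2 terms (edgeR adjusted p = 0.00452 in WT, 3.32e-04 in KO). Its level per cell was not measured. The promoter factor subunits Taf1b and Taf1c did not pass, at 0.07 ± 0.06 and 0.09 ± 0.05 in WT and -0.08 ± 0.06 and 0.00 ± 0.05 in KO. With library totals as the scale, where all values lie lower, Taf1b and Taf1c fell by 0.27 and 0.24 in WT and by 0.40 and 0.33 in KO (edgeR adjusted p of at most 6.82e-04), and Znrd1 no longer passed (0.02 ± 0.07 in WT and -0.01 ± 0.07 in KO), nor did Taf1a in KO (0.11 ± 0.06, edgeR adjusted p = 0.0888, from 0.43). In the RNA polymerase III list, 10 of 12 rose and 2 fell in each genotype (medians 0.65 and 0.55), and with library totals as the scale the subunit Polr3f no longer passed in KO (0.08 ± 0.05, edgeR adjusted p = 0.102, from 0.41). The members that fell were Polr3gl, the paralogue of the subunit Polr3g, which went from 26.8 ± 0.977 to 6.39 ± 0.831 CPM in WT (log2 -2.07 ± 0.09), and Maf1, a repressor of the polymerase, which went from 108 ± 3.36 to 45.3 ± 0.480 CPM (log2 -1.25 ± 0.04). In KO their log2 values were -2.03 ± 0.09 and -1.18 ± 0.04.

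Of the 9 other RNase P and MRP subunits 8 rose in each genotype, with medians of 1.98 in WT and 1.69 in KO. Rpp25 went from 0.122 ± 0.0516 to 3.92 ± 0.0861 CPM in WT, and its log2 value of 4.97 ± 0.25 SE rests on few counts at rest, where 3 counts correspond to 0.0421 to 0.0474 CPM in those libraries. Rpp30 and Rpp38 rose by 2.15 ± 0.06 and 2.04 ± 0.09 in WT. Rpp21 did not pass, at 0.08 ± 0.07 in WT and -0.04 ± 0.07 in KO, and with library totals as the scale it fell by 0.25 and 0.36. All 14 genes of the nuclear RNA exosome, which degrades spacer RNA and trims the 5.8S precursor, rose in each genotype (medians 1.75 and 1.58), led by the nuclease Dis3 (2.75 ± 0.07), Exosc2 (2.45 ± 0.06) and Exosc6 (2.34 ± 0.09), although Exosc5 stood at -0.01 ± 0.04 in WT and 0.00 ± 0.04 in KO with library totals as the scale. Against these 8 lists, whose medians lay between 0.65 and 2.38 in WT, the 39 genes had a median of 2.40, and no test of that difference was made. The 39 genes and the lists were chosen with earlier results of these data known, so the order of these medians may in part reflect that choice.

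**Figure D3:**
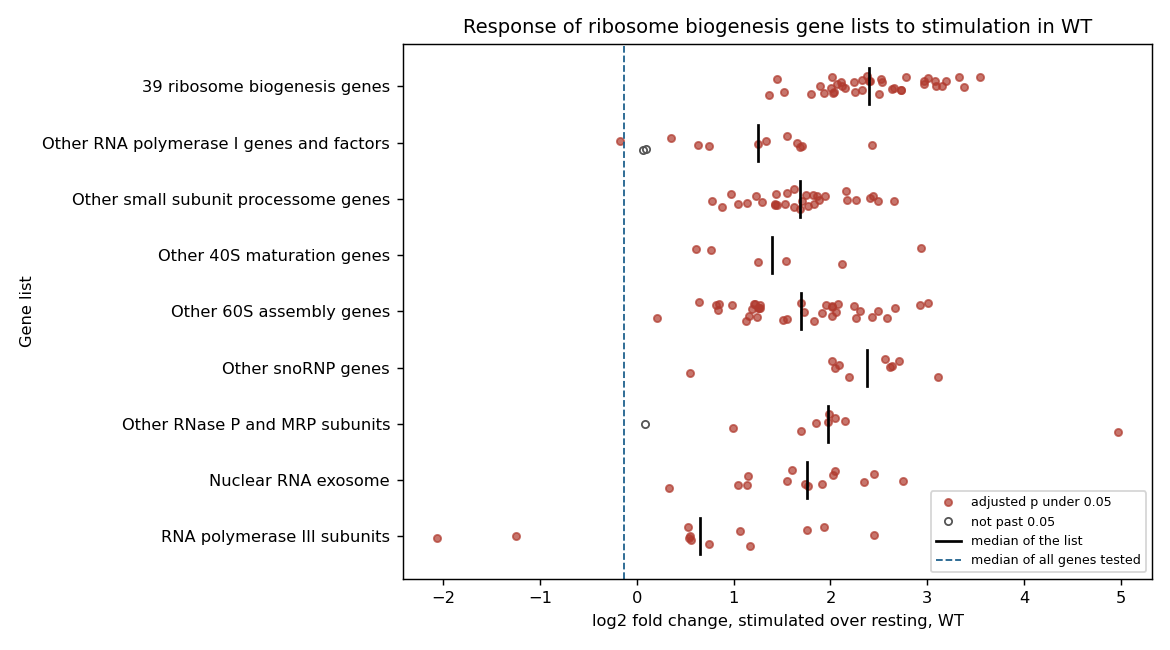
Log2 fold change of stimulated over resting cells in WT for the 39 genes and for 8 lists of other genes of the pathway, 1 point per gene, filled where the adjusted p was under 0.05 (edgeR). Vertical bars give each list's median, 2.40 for the 39 genes and 0.65 for RNA polymerase III, and the dashed line gives the median of all genes tested, -0.14; the rightmost point is Rpp25, which had few counts at rest.

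No gene of the set passed the test between KO and WT in resting cells. Of 39 genes 0 passed (edgeR quasi-likelihood, adjusted over 16637 genes; smallest adjusted p = 0.302), where 0.0361% of all genes tested did, and 9 were at an unadjusted p under 0.05, where 13.7% of all genes tested were. The DESeq2 Wald test also called 0 of the 39, where over all genes it called 131 higher and 387 lower. The fold change was above 0 on the log2 scale for 33 genes and below for 6, with a median of 0.10 against 0.01 over all genes. KO libraries lay above all WT libraries for 6 genes (Nop58, Noc3l, Noc4l, Rrs1, Pop1 and Ltv1), or 6 of 39, where 9.86% of genes tested did. Ltv1 had the smallest p of the 39, with 31.8, 30.04 and 34.3 CPM in WT and 36.3, 37.9 and 35.3 in KO, log2 0.18 ± 0.05 SE.

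The WT resting libraries differed among themselves more than those of the other groups. The median coefficient of variation of the 39 genes was 8.83% in WT resting, 3.45% in KO resting, 3.26% in WT stimulated and 2.59% in KO stimulated libraries. WT resting replicate 3 had the highest level of the group for 35 of 39 genes and replicate 1 the lowest for 27. In the same libraries the summed myeloid markers were 3107, 1662 and 976 CPM in replicates 1, 2 and 3, the erythroid markers 1723, 516 and 59.6 CPM, the B cell markers 2464, 1929 and 1268 CPM and the CD4 T cell markers 4763, 5184 and 5520 CPM. The part of these other cells in the members' values was not tested. Without WT resting replicate 1 the count above 0 was 27 of 39 with a median of 0.06, and without WT resting replicate 3 it was 35 of 39 with a median of 0.15. The count of genes that passed was 0 in each of the 6 fits that left out 1 library.

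In stimulated cells 2 of the 39 genes were lower in KO, where 1.4% of all genes tested were called lower (edgeR quasi-likelihood, adjusted over 15090 genes), and 0 were higher, where 3.37% were. Noc4l stood at 223, 229.7 and 225 CPM in WT and 207, 201 and 202 in KO, without overlap, and fell by 0.15 ± 0.03 SE on the log2 scale (edgeR adjusted p = 0.0195). Nop10 stood at 106, 112 and 103 CPM in WT and 93.8, 96.8 and 92.5 in KO, again without overlap, and fell by 0.17 ± 0.04 SE (edgeR adjusted p = 0.0301). Both calls were lost when the spread was estimated over all 12 libraries (edgeR adjusted p = 0.0737 for Noc4l and 0.134 for Nop10). Noc4l also missed the threshold without WT stimulated replicate 3 (edgeR adjusted p = 0.0632) and without KO stimulated replicate 1, 2 or 3 (0.0671, 0.109 and 0.0798). Nop10 missed it without WT stimulated replicate 1 (edgeR adjusted p = 0.0537) and without KO stimulated replicate 1, 2 or 3 (0.126, 0.0901 and 0.125).

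Over the 39 genes the stimulated difference was below 0 for 37 and above for 2, Utp20 and Noc3l, with a median log2 of -0.06 against 0.00 over all genes, and 14 genes were at an unadjusted p under 0.05, where 20.6% of all genes tested were. In 17 genes every KO library lay below every WT library, where 14.6% of genes tested did. They included Ncl, with 6270.5, 6734 and 6518 CPM in WT and 6180.4, 6257 and 5651 in KO, Npm1, Fbl, Nhp2, Dkc1, Polr1b and Pop1, of which none passed after adjustment. KO stimulated replicate 3 had the lowest level of its group for 34 of the 39 genes. Without it 32 genes were below 0, with a median of -0.04. B cell markers summed to 404 to 606 CPM in WT and 780 to 813 CPM in KO stimulated libraries. Myeloid markers summed to 7.90 to 13.7 and 15.7 to 21.3 CPM, and CD8 T cell markers to 15.4 to 21.01 and 28.5 to 32.7 CPM. The part of these cells in the difference was not tested. With library totals as the scale 34 of 39 genes were below 0 and the median was -0.04.

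**Figure D4:**
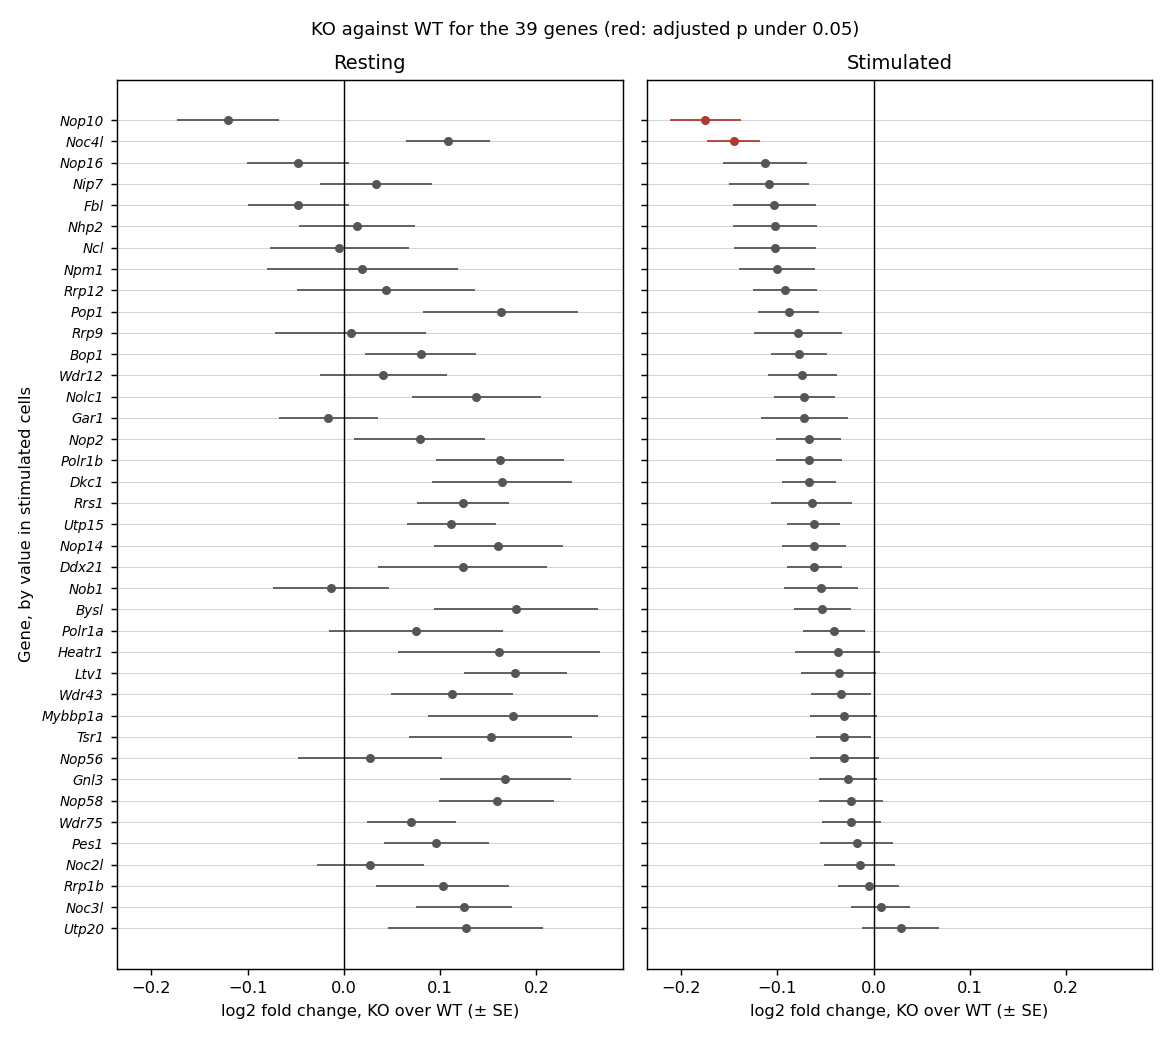
Log2 fold change of KO over WT with its standard error for each of the 39 genes, in resting cells on the left and stimulated cells on the right, ordered by the stimulated value. Points lie mostly right of 0 at rest (33 of 39) and left of 0 after stimulation (37 of 39), and the 2 red points, Nop10 and Noc4l in stimulated cells, are those that passed.

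The size of the rise was then compared between genotypes. Across the 39 genes the log2 rise in KO followed that in WT, with Pearson's r = 0.993 and Spearman's rho = 0.989, given as a description over genes that share the same 12 libraries and their scaling. The KO rise was the smaller for 39 of 39 genes, by 0.06 to 0.27 on the log2 scale, where the difference was below 0 for 8981 of 17460 genes tested. The median over genes of the ratio of the fold in KO to the fold in WT was 89.5%. The median difference of responses (KO minus WT) was -0.16, against -0.01 over all genes tested and a spread of 0.13 from the replicates of the members' median. These differences are built from the same libraries as the comparisons of KO with WT in resting and stimulated cells, so they are no separate evidence. Noc4l was the 1 gene of 39 that passed, with -0.27 ± 0.05 SE (edgeR quasi-likelihood adjusted p = 0.0412), where 0.137% of all genes tested were called lower, and 13 genes were at an unadjusted p under 0.05, where 15.9% were. Next came Pop1, with -0.27 ± 0.06 SE and an edgeR adjusted p of 0.0815, then Utp15, with -0.19 ± 0.06 SE and 0.155. The other pathway lists lay the same way, with medians between -0.16 and -0.09. Below 0 were 31 of 31 small subunit processome, 37 of 37 60S assembly, 14 of 14 exosome and 6 of 6 40S maturation genes. So were 12 of 13 RNA polymerase I, 9 of 10 snoRNP, 7 of 9 RNase P and MRP and 9 of 12 RNA polymerase III genes. In these lists 1 gene passed, the 40S factor Tsr2, with -0.30 ± 0.06 SE (edgeR adjusted p = 0.0463). Whether Tsr2 also passed with a library left out is not given here. Its CPM went from 18.8 ± 0.286 to 81.6 ± 2.199 in WT and from 21.5 ± 0.492 to 75.6 ± 3.46 in KO (mean ± SD, n = 3).

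The call on Noc4l's response was lost in most fits that left out a library. With 1 library left out it passed without WT resting replicate 1 (edgeR adjusted p = 0.0450) or WT resting replicate 3 (0.00817), and missed the threshold without WT resting replicate 2 (0.100), any KO resting replicate (0.0931, 0.113 and 0.0859), any WT stimulated replicate (0.0999, 0.0580 and 0.106) or any KO stimulated replicate (0.0853, 0.132 and 0.0682). WT resting replicate 3 decided the count of members: without it 19 of 39 passed as lower in KO, with a median of -0.23, and 741 of all genes were called lower, against 24 with every library, while without WT resting replicate 1 the count was 2 (Noc4l and Pop1), with a median of -0.11. The difference was below 0 for 39 of 39 genes in each of these 12 fits. With replicate 1 of both resting groups left out together, 38 were below 0 and 1 above, with a median of -0.12.

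**Figure D5:**
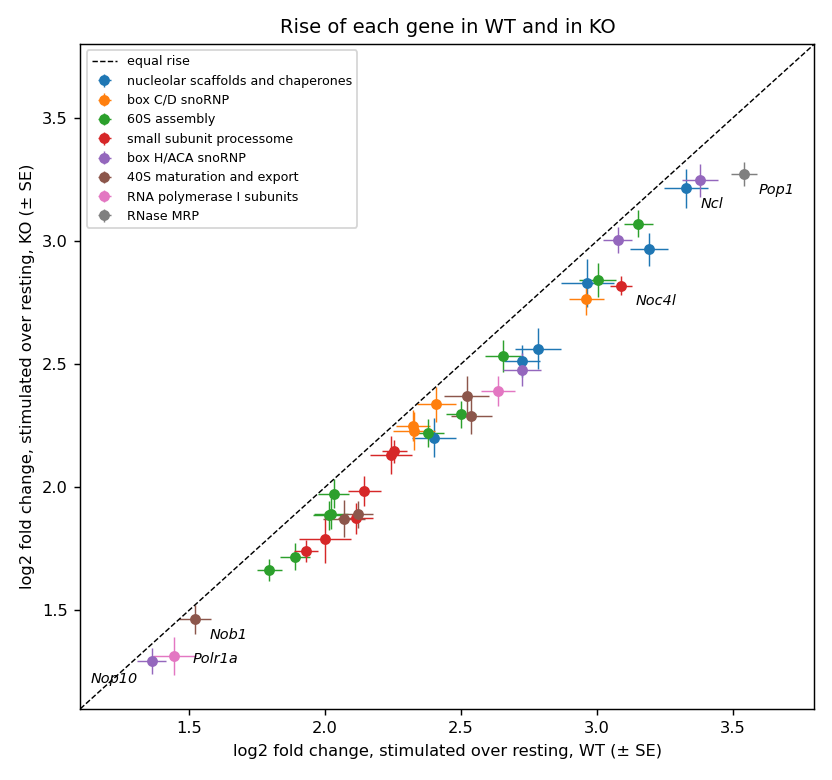
Log2 rise on stimulation in KO (vertical) against that in WT (horizontal) for the 39 genes, each with its standard error and coloured by role; the dashed line marks an equal rise. Every point lies under the line, from Nop10 (1.36 in WT and 1.29 in KO) to Pop1 (3.54 and 3.27), and Noc4l, the gene that passed the test of the difference, stands at 3.09 and 2.82.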

How the data were processed

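Polyadenylated RNA of 12 libraries in 4 groups of 3 was analysed from 2 tables that hold, as the authors deposited them, expected counts per gene from RSEM. These need not be whole (about 7% of values in a library are not) and were not normalized. Besides RSEM 1.3.1, the submitters' processing notes list STAR 2.7.0f, cutadapt 1.18, bcl2fastq 2.20 and the build mm10, without settings. Per the labels' protocols the library kit keeps strand; no source used here says if counting used it.

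Counts were rounded, and genes kept by filterByExpr with a minimum count of 10 and total of 15. After TMM scaling, edgeR 4.0.16 was used for testing (robust quasi-likelihood F-test, R 4.3.3, Benjamini-Hochberg over all genes tested, threshold 0.05). Stimulation in each genotype and the difference of responses came from 1 fit of the 4 group means over 12 libraries, and KO against WT from fits of the 6 resting or the 6 stimulated libraries. The test was checked on simulated counts. Gene levels in CPM use TMM-scaled library sizes, and marker sums and shares the plain totals. A limit of 3 counts per library serves as the floor and, like all counting limits, covers counting error only. Replicates differed by more than sampling noise, so each counted as 1. Positions, transcript lengths and symbols came from GENCODE M21, where 55450 of 55450 rows matched by identifier.

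The members and all gene lists were chosen with earlier results of these data known. All 39 members could be named, with up to 3 genes of largest change per other list, Pkm, Xist and Ddx3y. Ttf1, Taf1a, Taf1b, Taf1c, Znrd1, Polr3f, Nsa2, Lsg1, Rpp21, Exosc5 and Maf1 were named after their values were seen. Of the other lists' 133 symbols Slx9 was not matched. Alternatives were DESeq2's size factors, library totals, TMM without chromosomes X and Y, the DESeq2 1.42.0 Wald test, no filter or at least 1 CPM in 3 libraries, a fit that is not robust, other library sets, a replicate block and leaving out each library. The within-complex ratios, and leaving out replicate 1 of both resting groups, were added after seeing the data. Protein sequences were not analysed here. The values of 2 genes are not reported here, and both stay in every count.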

Additional observations from a re-analysis of the deposited data

Results flagged for a closer look

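Noc4l, the small subunit processome factor, differed between the genotypes in its response to stimulation: its rise was smaller in KO by 0.27 on the log2 scale (KO minus WT -0.27 ± 0.05 SE, edgeR quasi-likelihood adjusted p = 0.0412 in a test of the difference itself). The call was lost in 10 of the 12 fits that left out 1 library (edgeR adjusted p up to 0.132) and with the replicate block (0.0752). It was lower in KO in all 3 stimulated libraries and higher in all 3 resting libraries than in the WT libraries of that condition, without overlap.

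Tsr2, a 40S maturation factor outside the 39 genes, also differed between genotypes in its response, by -0.30 ± 0.06 SE (edgeR quasi-likelihood adjusted p = 0.0463). Whether this call held with a library left out is not given here. With 1 library left out, the genes called lower in this comparison numbered 2 to 741, against 24 with every library. Noc4l and Tsr2 both rose in each genotype, and both differences rest on the same 12 libraries.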

How the results depend on the processing

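The rise of the 39 genes passed in both genotypes under every alternative run, each library left out included. With library totals as the scale its median log2 was 2.07 in WT and 1.92 in KO, and with at least 1 CPM in 3 libraries 2.203 in KO. Leaving out 1 library gave medians of 2.34 to 2.50 in WT and 2.24 to 2.29 in KO. Calls over all genes were less even: library totals took the share of calls that were higher from 46.7% to 37.2% in WT and from 47.8% to 37.8% in KO.

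The difference of responses called 97 genes higher and 24 lower, 1 of them a member. The count of genes lower was 38 with DESeq2's size factors (higher share of calls 69.6%, against 80.2%) and 44 with library totals. The DESeq2 Wald test called 607 higher and 405 lower, 5 of them members (Noc4l, Utp15, Polr1b, Pop1 and Ltv1), and the filter of 1 CPM 156 higher and 48 lower. Leaving out replicate 1 of both resting groups gave 183 higher and 0 members. Leaving out 1 library gave 0 to 19 members, 24 to 905 genes higher and 2 to 741 lower.

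KO against WT called 3 higher and 3 lower at rest. The Wald test gave 131 and 387, no filter 13 and 27, the fit over 12 libraries 69 and 92, and leaving out both replicates 1 gave 10 and 20. Leaving out 1 library gave 1 to 4 higher and 1 to 14 lower. In stimulated cells, with 508 higher and 211 lower, the genes lower were 120 with library totals (higher share of calls 82.5%, against 70.7%), 407 by the Wald test and 352 with no filter. The fit over 12 libraries gave 191 higher, 28 lower and 0 members. Leaving out 1 library gave 0 to 2 members, 110 to 917 genes higher and 18 to 491 lower. Of the within-complex ratios, Wdr12 over Pes1, which did not pass, changed sign to -0.0098 without WT resting replicate 1 and to -0.031 without KO resting replicate 2 (range with 1 library left out -0.031 to 0.0302). The cause of these changes was not tested.

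Replicate numbers did not pair the libraries in every group: correlations between libraries of the same number ran from -0.23 to 0.40. Between WT resting and KO resting they were 0.40, -0.17 and 0.38 in replicates 1, 2 and 3. The means for libraries of other numbers were -0.31, 0.03 and -0.05 there. The test of KO against WT at rest was unpaired, and with the replicate block it also called 0 members. With the replicate block the difference of responses called 0 members and 12 genes lower, while the 2 members lower in stimulated KO cells passed in that fit too. Depth limits only genes such as Rpp25 at rest, since each member had at least 572 counts in every library.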
